A study of Rattus norvegicus with 23 samples.

Results

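The kidney remnant left after partial nephrectomy was compared with the kidney of sham-operated rats, 4 weeks after surgery. The comparison took every kidney library that the labels give to one of these groups, 4 after nephrectomy (NX) and 4 after sham surgery (Sham), and so 8 of the 23 libraries of the series. The rats were Sprague-Dawley, 13 weeks old, and no transgene or drug is named. NX rats had a 5/6th partial nephrectomy, and Sham rats an operation that the labels do not describe further. Rats of another group, AVF+NX, had the same nephrectomy and, in addition, a surgical fistula joining the jugular vein end-to-side to the carotid artery. The 4 kidney libraries of that group shared the fit, and so bear on its count filter, scaling and estimate of spread. Their own levels are only set side by side with those of NX. The labels call the samples biological replicates. They do not say which piece of the remnant kidney was taken, how animals were pooled if at all, or the hour of collection.

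Removing most of the renal mass is a classical way to produce chronic kidney disease in rats. The nephrons that remain filter more each, their tubules enlarge, some tubule cells divide again, and over weeks leukocytes and collagen accumulate between the tubules. The proximal tubule, which makes up most of the cortex, reclaims most of the filtered solutes through transporters and peptidases of its brush border. In bulk tissue, fewer cells of a type and less RNA per cell cannot be told apart.

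The libraries held 9069354 to 12637718 counts after sham surgery. NX libraries 1 to 3 held 9360065 to 9458673 counts, and NX library 4 held 18782085. Mitochondrial genes took 7.63% to 9.51% of the counts in Sham, 9.37% to 9.63% in NX libraries 1 to 3, and 4.15% in NX library 4. NX library 3 stood apart from the other NX libraries. On the first principal component, which carried 42.6% of the variance over the 8 libraries, it lay at -11.1, beside -33.7 to -12.3 for Sham and 24.7 to 42.4 for the other NX libraries. Its mean correlation was 0.981 with the Sham libraries and 0.970 with the other NX libraries. Results are therefore given with and without it. Because these same values picked it out as near Sham, leaving it out tends by itself to widen the difference between groups. The results without it show how far they depend on this library and are no separate support. Defining genes of the kidney were present in all 8 libraries, with Umod (uromodulin, made by the thick ascending limb) at 2905 CPM or more and Lrp2 (megalin, the endocytic receptor of the proximal tubule) at 6197 CPM or more. CPM is a gene's count over the scaled total of its library, times 1e6.

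After nephrectomy, genes of cell division, of B and plasma cells, of macrophages and of collagen were among those that rose. Brush border enzymes of the proximal tubule and 2 clock genes were among those that fell. Of 14322 genes tested with edgeR, 187 passed an adjusted p below 0.05 (1.31%), 123 higher in NX (0.859%) and 64 lower (0.447%). Fitting only the 8 NX and Sham libraries gave 94 higher and 88 lower, and 111 of the 187 calls were kept. The median log2 fold change was 1.70 over the genes called higher and -0.68 over those called lower. Of the called genes, 100 of the higher and 14 of the lower ones differed at least 2-fold.

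All 4 NX libraries lay above all 4 Sham libraries in 118 of the 123 genes called higher, against 5.28% of all genes tested. All 4 lay below in 62 of the 64 called lower, against 4.1% of all genes. NX library 3 was the NX library nearest to Sham in 90 of the 123 higher genes and in 25 of the 64 lower ones. Over the higher genes its median log2 difference from the Sham mean was 0.99, and that of the other NX libraries was 1.64 to 1.83. Over the lower genes it was -0.55, and that of the others -0.76 to -0.72. Without NX library 3, 415 genes were higher (2.85%) and 168 lower (1.16%). Counts of list members without it are to be read beside these shares, and those with all libraries beside 0.859% higher and 0.447% lower.

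**Figure D1:**
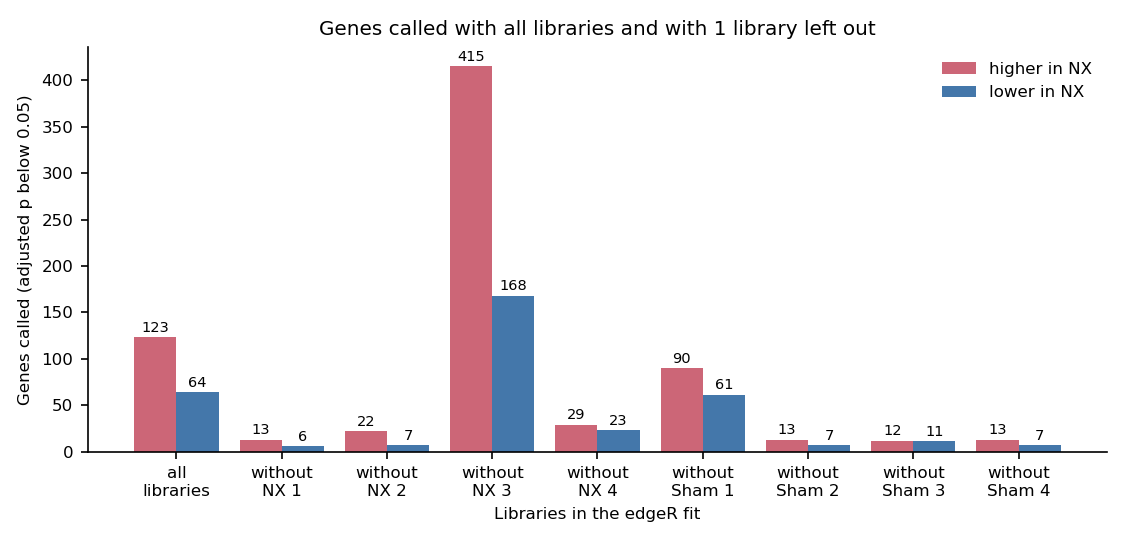
Number of genes called higher (red) and lower (blue) in NX at an adjusted p below 0.05. The edgeR fits held all libraries or left out 1 NX or Sham library at a time. The counts were 123 and 64 with all libraries, 415 and 168 without NX library 3, and between 12 and 90 higher and 6 and 61 lower without any of the others.

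The number of calls thus moved with each library left out. Leaving out NX library 1, 2 or 4 left 19, 29 and 52 calls, and leaving out Sham library 1, 2, 3 or 4 left 151, 20, 23 and 20. The AVF+NX libraries were not left out in turn. Of the 61 called genes named in the text, Mki67, Top2a, Pbk, Anln, Igh-6, Mme, Gprin3, Slc5a6 and Afm kept their call whichever NX or Sham library was left out. The other 52 lost it without at least 1 of these libraries, with no change of direction and an adjusted p of at most 0.151.

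Of the 51 gene lists examined, that of cell division had the most called members. Of 42 cell cycle genes tested, 17 rose and 0 fell, against 0.859% of all genes rising, and the median log2 fold change was 1.45, against 0.02 over all genes. In 32 of the 42 every NX library lay above every Sham library, against 5.28% of all genes tested. The summed level of the list was 162 to 182 CPM in Sham and 292, 284, 252 and 334 CPM in NX libraries 1 to 4, so the groups did not overlap and NX library 3 was the lowest of its group. Without NX library 3, 26 members rose, against 2.85% of all genes. Without each of the other libraries in turn, 5 (Sham library 3), 6 (NX library 1 or Sham library 2), 7 (NX library 4 or Sham library 4), 8 (NX library 2) and 16 (Sham library 1) rose.

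Mki67 encodes the Ki-67 antigen, present in cycling cells and absent from resting ones. Its level was 7.12, 6.09, 6.29 and 7.10 CPM in the Sham libraries and 28.4, 24.3, 16.4 and 26.2 CPM in the NX libraries. All NX libraries were above all Sham libraries, with NX library 3 the lowest of them. The log2 fold change was 1.85 (SE 0.20, adjusted p = 0.00402), and 1.98 without NX library 3. Top2a, the topoisomerase that untangles DNA before mitosis, was at 1.89, 2.88, 1.83 and 2.88 CPM in Sham and at 13.8, 9.79, 12.7 and 20.4 CPM in NX. Here NX library 3 lay among the other NX libraries, and the log2 fold change was 2.58 (SE 0.29, adjusted p = 0.00402).

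Pbk, a mitotic kinase, was at 0.0822 to 0.270 CPM in Sham and at 1.75, 1.61, 1.70 and 2.57 CPM in NX (log2 3.32, SE 0.43, adjusted p = 0.00642). Anln, the actin-binding protein anillin of the cleavage furrow, was at 0.779 to 1.26 CPM in Sham and at 4.54, 3.98, 4.18 and 4.25 CPM in NX (log2 2.04, SE 0.27, adjusted p = 0.00709). Neither gene showed NX library 3 apart from its group. Cdk1, the kinase that drives entry into mitosis, did not pass (log2 2.14, SE 0.49, adjusted p = 0.0546), nor did its partner Ccnb1 (log2 1.78, SE 0.41, adjusted p = 0.0544). Both passed without NX library 3, at adjusted p = 0.0306 and 0.0382.

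The promoters of these genes are shown because many genes of late cell division share short upstream elements, the cell cycle homology element and CCAAT boxes. RefSeq promoters on the GRCr8 assembly were found for 13 of the 17 called members, and the 250 bases before the start were searched on both strands for the homology element, spelled TTTGAA or in its variant form TTCGAA, and for the box CCAAT. Of the 13, 7 held the element in either form, against 17.4% of all 33469 promoters, and 9 held CCAAT, against 34% of all. At least 2 CCAAT matches were present in 6 of the 13, against 9.42% of all, and 5 held both kinds, against 6.31%. A match is a description of the letters and not a bound site. The 180 bases before the start are printed for 3 members that kept their call whichever NX or Sham library was left out. The bases read in the direction of transcription, with every match on either strand in capitals. All 3 genes lie on the minus strand: Mki67 at chr1:199952594-199952773, Top2a at chr10:84473094-84473273 and Anln at chr8:29197514-29197693.
Mki67: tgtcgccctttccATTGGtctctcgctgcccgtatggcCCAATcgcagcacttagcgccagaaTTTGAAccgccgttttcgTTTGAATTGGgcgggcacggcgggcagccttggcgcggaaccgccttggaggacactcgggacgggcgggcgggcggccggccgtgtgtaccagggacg
Top2a: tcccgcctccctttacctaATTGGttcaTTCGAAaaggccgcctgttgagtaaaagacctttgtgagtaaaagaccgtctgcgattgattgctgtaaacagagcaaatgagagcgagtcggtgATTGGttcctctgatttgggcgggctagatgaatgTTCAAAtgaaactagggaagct
Anln: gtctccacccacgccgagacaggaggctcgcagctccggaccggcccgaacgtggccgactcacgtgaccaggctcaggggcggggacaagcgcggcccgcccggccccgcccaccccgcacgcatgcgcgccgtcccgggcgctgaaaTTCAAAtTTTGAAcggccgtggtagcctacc
Within the 250 bases Mki67 held 2 matches to the first form, 1 of which overlaps a match to the box read on the other strand, and 4 to the box. Top2a held 1 match to each form of the element and 4 to the box, and Anln held 2 to the first form and 0 to the box.

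Of 38 DNA replication genes tested, 3 rose and 0 fell, against 0.859% of all genes rising. The median log2 fold change was 0.40, and 10 rose without NX library 3. Without any of the other libraries 0 to 2 rose. Mcm3, a subunit of the replicative helicase, was at 3.45, 3.04, 2.27 and 2.79 CPM in Sham and at 9.38, 9.14, 3.50 and 9.34 CPM in NX. NX library 3 lay just above the highest Sham library, and the other 3 NX libraries lay close together. The log2 fold change was 1.45 (SE 0.27, adjusted p = 0.0297), and 1.69 without NX library 3. Uhrf1, which guides the copying of DNA methylation, rose by 2.54 on the log2 scale (SE 0.46, adjusted p = 0.0297). Rrm2, a subunit of ribonucleotide reductase, rose by 1.43 (SE 0.31, adjusted p = 0.0463). Mcm6 did not pass (log2 1.11, SE 0.26, adjusted p = 0.057). Of 27 histone genes tested, 8 rose, against 0.859% of all genes. Their near-identical copies can split reads, and the RNA was poly(A)-selected, so single histone values are uncertain.

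Among 21 cell cycle inhibitors and p53 targets tested, 2 rose and 0 fell, against 0.859% of all genes rising. The median log2 fold change was 0.14. Cdkn1a (p21, an inhibitor of cyclin-dependent kinases induced by p53) was at 9.57, 4.93, 4.98 and 7.01 CPM in Sham and at 24.2, 20.4, 15 and 14 CPM in NX (log2 1.48, SE 0.31, adjusted p = 0.0441). All NX libraries were above the highest Sham library. Cdkn2b (p15, an inhibitor of the kinases that open the cycle) was at 0.0822 to 0.36 CPM in Sham and at 2.17, 3.23, 0.678 and 1.33 CPM in NX (log2 2.80, SE 0.62, adjusted p = 0.0478).

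**Figure D2:**
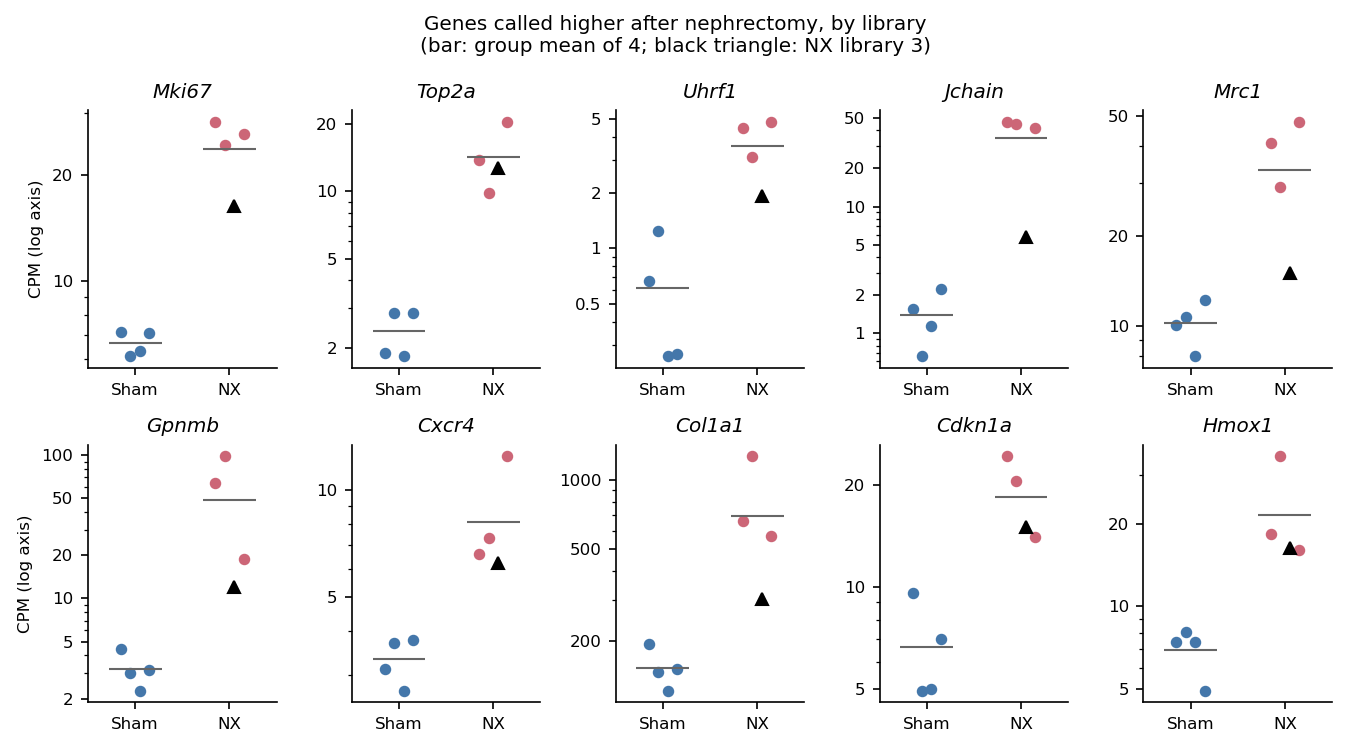
Level of 10 genes called higher in NX, in CPM on log axes, 1 point a library, with the mean of the 4 libraries as a bar and NX library 3 as a black triangle. All NX points lie above all Sham points in each panel, and NX library 3 is the lowest NX library for Mki67, Uhrf1, Jchain, Mrc1, Gpnmb, Cxcr4 and Col1a1.

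Genes of B and plasma cells had the highest median log2 fold change of the 51 lists, at 1.55. Of 19 tested, 5 rose and 0 fell, against 0.859% of all genes rising. In the fit of only NX and Sham, where Mzb1 was not tested, 3 rose. The summed level was 211 to 241 CPM in Sham and 424, 398, 212 and 453 CPM in NX, so NX library 3 lay within the Sham range. Without NX library 3, 12 rose. Only 1 rose without NX library 1 or without Sham library 2, 3 or 4, and 3 rose without NX library 2 or 4.

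Igh-6 (ENSRNOG00000048402), named by the files as an immunoglobulin heavy chain gene, was at 2.11, 1.07, 0.262 and 0.989 CPM in Sham and at 94.1, 114, 18.2 and 123 CPM in NX. All NX libraries were far above all Sham libraries, NX library 3 included. The log2 fold change was 6.35 (SE 0.83, adjusted p = 0.00868). Similar heavy chain segments can split reads, so its level is uncertain. Jchain, the joining chain of secreted IgM and IgA, was at 1.56, 0.658, 1.14 and 2.25 CPM in Sham and at 46.5, 45.2, 5.76 and 41.6 CPM in NX (log2 4.65, SE 0.68, adjusted p = 0.0182). NX library 3 was near the Sham libraries but above them.

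Mzb1, a chaperone of antibody-secreting cells, was at 0 to 0.334 CPM in Sham and at 4.33, 4.19, 0.565 and 5.04 CPM in NX (log2 4.22, SE 0.75, adjusted p = 0.0297). It passed the count filter only with the AVF+NX libraries included. Its Sham counts are few, so its fold is uncertain. Cd22, a receptor that restrains B cell signalling, chosen after its values were seen, rose by 1.51 on the log2 scale (SE 0.32, adjusted p = 0.0429). Cr2, a complement receptor of B cells and follicular dendritic cells, was called with Sham levels of 0 to 0.223 CPM and NX levels of 0.565 to 1.63 CPM, and its Sham counts are too few for a fold. Fcamr, a receptor that binds IgM and IgA, rose by 2.5 (SE 0.52, adjusted p = 0.04). Irf4, a regulator of plasma cells, did not pass (log2 1.21, SE 0.29, adjusted p = 0.0645).

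Of 26 macrophage and monocyte genes tested, 1 rose and 0 fell, against 0.859% of all genes rising. DESeq2 called 11 higher and limma voom 2. All 26 had a positive log2 fold change, with a median of 0.88. Their summed level was 468 to 603 CPM in Sham and 876, 1016, 562 and 1708 CPM in NX, with NX library 3 within the Sham range and NX library 4 the highest. Without NX library 3, 12 rose, and without any other library 0 rose. Mrc1, the mannose receptor of resident and repair-type macrophages, was the called member. It was at 10.1, 10.8, 7.95 and 12.2 CPM in Sham and at 40.6, 29.0, 15 and 47.9 CPM in NX (log2 1.70, SE 0.34, adjusted p = 0.0386). Cd68, a lysosomal marker of macrophages, did not pass (log2 1.25, SE 0.30, adjusted p = 0.0684).

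Macrophages that take up lipid and debris carry a recognisable set of genes. Of 27 such genes tested, 4 rose and 0 fell, against 0.859% of all genes rising. The median log2 fold change was 0.39, and 5 rose without NX library 3. Without any other library the count was 0, except 2 without NX library 4 or Sham library 1. Gpnmb, a lysosomal glycoprotein, was at 4.45, 3.04, 2.27 and 3.15 CPM in Sham and at 64.3, 98.1, 12 and 18.8 CPM in NX. The NX libraries spread over a wide range, but the lowest was above the highest Sham library (log2 3.91, SE 0.71, adjusted p = 0.031). Trem2, a lipid-sensing receptor, rose by 2.06 (SE 0.37, adjusted p = 0.0297), and Lgals3 (galectin-3) rose by 1.55 (SE 0.32, adjusted p = 0.0441).

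Ctsd, the lysosomal protease cathepsin D, which most cells make, was at 556, 523, 522 and 451 CPM in Sham and at 853, 818, 846 and 637 CPM in NX. NX library 3 was high here and NX library 4 was the lowest of its group (log2 0.62, SE 0.11, adjusted p = 0.0297). Siglec1, a sialic acid receptor of macrophages, rose by 2.45 (SE 0.50, adjusted p = 0.0429). Spp1 (osteopontin), made by injured tubules as well as macrophages, was at 364, 407, 339 and 237 CPM in Sham and at 704, 746, 507 and 1564 CPM in NX. The groups did not overlap, yet the test did not pass (log2 1.39, SE 0.38, adjusted p = 0.0949, and 0.0449 without NX library 3).

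T and NK cell genes gave 1 rise and 0 falls among 30 tested, against 0.859% of all genes rising. All 30 had a positive log2 fold change, with a median of 0.86. Their sum was 113 to 130 CPM in Sham and 201, 207, 142 and 304 CPM in NX, without overlap. Without NX library 3, 10 rose, and 0 or 1 without any other library. Cd247, the zeta chain of the T cell receptor complex, was at 0.334 to 0.699 CPM in Sham and at 3.51, 1.72, 1.47 and 3.21 CPM in NX (log2 2.13, SE 0.38, adjusted p = 0.0297). Slamf6, a lymphocyte surface receptor, rose by 2.79 (SE 0.62, adjusted p = 0.0499). Ptprc (CD45, carried by all leukocytes) was at 23.2 to 28.9 CPM in Sham and at 48.7, 49.1, 31.9 and 83.3 CPM in NX, and did not pass (log2 1.02, SE 0.24, adjusted p = 0.0601). It passed without NX library 3 (adjusted p = 0.00987). How far the summed leukocyte markers account for other changes in these libraries was not tested.

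Of 33 chemokines and receptors, 3 rose, against 0.859% of all genes. The median log2 fold change was 0.80. Without NX library 3, 9 rose, and without any other library 0, except 2 without Sham library 1. Cxcr4, a homing receptor of leukocytes and progenitors, was at 3.12, 3.70, 2.71 and 3.78 CPM in Sham and at 6.60, 7.31, 6.22 and 12.5 CPM in NX (log2 1.31, SE 0.24, adjusted p = 0.0297). Ccr7, which guides lymphocytes and dendritic cells to lymphoid tissue, rose by 2.27 (SE 0.41, adjusted p = 0.0297). Ccl7, a monocyte chemoattractant, rose by 2.88 (SE 0.62, adjusted p = 0.0453), although NX library 3, at 0.226 CPM, lay within the Sham range of 0.0822 to 0.334 CPM. Ccl2, its close relative, did not pass (log2 1.93, SE 0.50, adjusted p = 0.0776).

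Of 27 complement genes, 1 rose, against 0.859% of all genes (median log2 0.48, 7 without NX library 3, and 0 without any other library). It was C5ar1, the receptor of the anaphylatoxin C5a, at 4.78 to 5.77 CPM in Sham and at 9.38, 11.1, 7.01 and 14.4 CPM in NX (log2 1.03, SE 0.23, adjusted p = 0.0463). C4b was at 7.78 to 13.7 CPM in Sham and at 71.4, 61.0, 9.38 and 31.2 CPM in NX, where only NX library 3 overlapped Sham. It did not pass (log2 2.05, SE 0.48, adjusted p = 0.065), and neither did C2 (log2 1.90, SE 0.43, adjusted p = 0.0546). Exons of both overlap other genes, so their values are uncertain.

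Of 41 interferon-stimulated genes, 1 rose, against 0.859% of all genes (median log2 0.40, 3 without NX library 3, and 0 without any other library). It was Ifi27 (log2 1.26, SE 0.28, adjusted p = 0.0499), and 0 members rose in the fit of only NX and Sham. Birc3, an inhibitor of apoptosis induced by NF-kappaB, rose by 1.45 (SE 0.32, adjusted p = 0.0499) and was the called member of 30 inflammatory signalling genes, of which 7 rose without NX library 3. Of 16 genes of MHC class II presentation, 0 were called, with a median log2 fold change of 0.21, and 2 rose without NX library 3. In NX against Sham their sum was 1432 to 2078 CPM against 1736 to 2109 CPM, so that the groups overlapped.

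**Figure D3:**
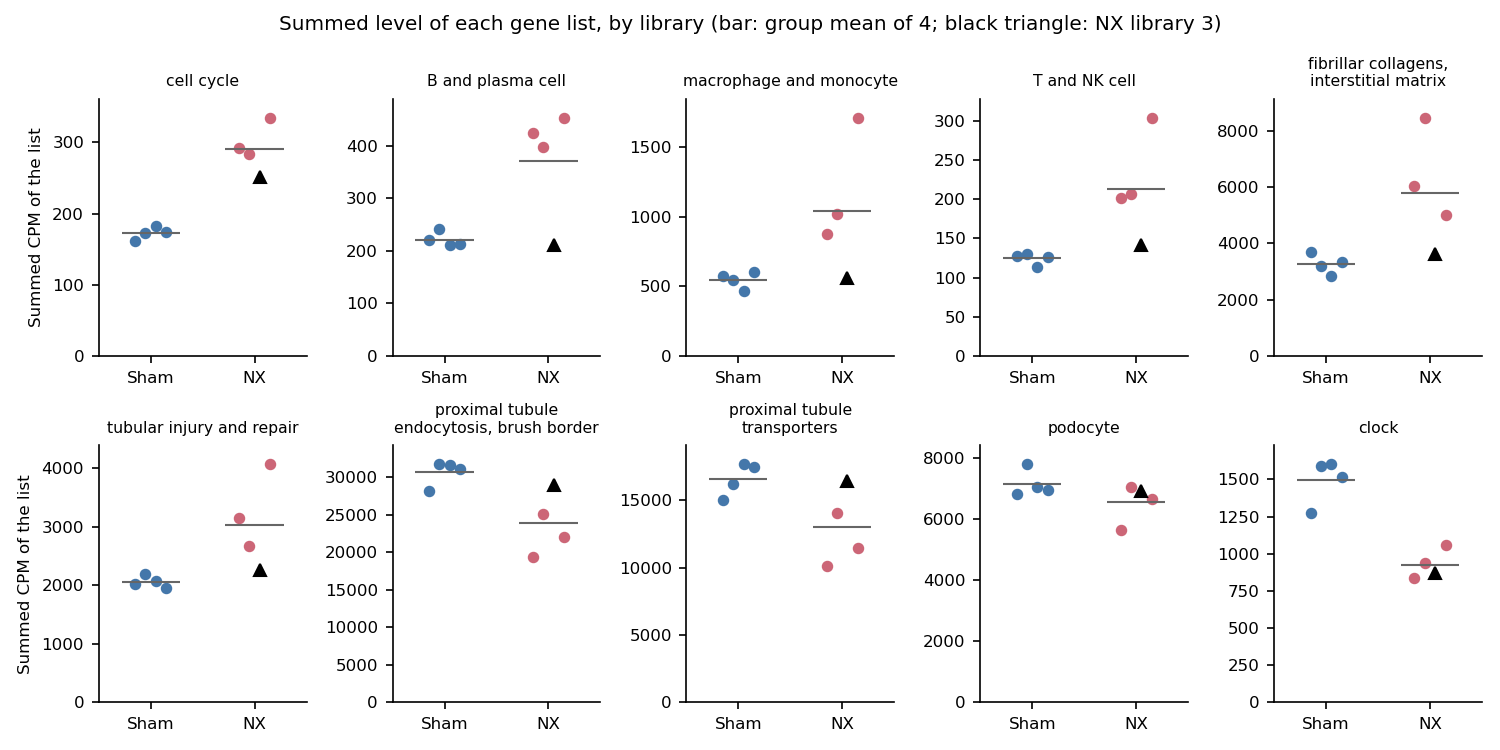
Summed CPM of 10 gene lists, 1 point a library, with the mean of the 4 libraries as a bar, NX library 3 as a black triangle and axes from 0. NX library 3 lies within the Sham range for B and plasma cells, macrophages and monocytes, collagens and interstitial matrix, both proximal tubule lists and podocytes. For podocytes NX library 2 does so too. For the clock list NX library 3 lies with the other NX libraries.

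Of 35 genes of fibrillar collagens and interstitial matrix, 3 rose and 0 fell, against 0.859% of all genes rising. DESeq2 called 17 higher and limma voom 11. The median log2 fold change was 0.93, and 12 members had all NX libraries above all Sham libraries, against 5.28% of all genes. The summed level was 2852 to 3703 CPM in Sham and 6050, 8460, 3632 and 5021 CPM in NX, with NX library 3 within the Sham range. With NX library 3 left out, 15 rose, and 0 to 2 rose without any other library. Col1a1, a chain of type I collagen, was at 193, 147, 122 and 151 CPM in Sham and at 660, 1260, 304 and 567 CPM in NX. NX library 2 was the highest and NX library 3 the lowest of a group that stayed above Sham (log2 2.19, SE 0.37, adjusted p = 0.0276, and 2.44 without NX library 3).

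Col3a1, the chain of type III collagen, was at 209, 190, 138 and 192 CPM in Sham and at 748, 1424, 288 and 521 CPM in NX (log2 2.03, SE 0.41, adjusted p = 0.0419). Its exons overlap another gene, so its value is uncertain. Col8a1, a short-chain collagen of vessels and scars, rose by 1.78 (SE 0.35, adjusted p = 0.0345). Postn (periostin), a matrix protein of injured stroma, was at 0, 0.0822, 0.175 and 0.809 CPM in Sham and at 13.0, 15.4, 2.03 and 2.62 CPM in NX. It did not pass (log2 4.80, SE 1.09, adjusted p = 0.0563), although the groups did not overlap.

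Other matrix lists had 0 calls: 19 basement membrane genes (median log2 0.22, 4 rose without NX library 3), 33 genes of crosslinking, proteases and inhibitors (0.44, 5 without NX library 3), and 24 markers of fibroblasts, pericytes and myofibroblasts (0.36, 2 without NX library 3). Col4a1, a chain of basement membrane collagen, was at 474 to 621 CPM in Sham and at 910, 974, 779 and 1067 CPM in NX (log2 0.79, SE 0.19, adjusted p = 0.0606). Lox, which crosslinks collagen, was at log2 1.54 (SE 0.35, adjusted p = 0.0546), and its exons overlap another gene.

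Of 37 tubular injury and repair genes tested, 2 rose and 0 fell, against 0.859% of all genes rising. The median log2 fold change was 0.63. The sum was 1953 to 2183 CPM in Sham and 3151, 2670, 2261 and 4061 CPM in NX, without overlap. With NX library 3 left out, 9 rose, and without any other library 0 rose, except 2 without Sham library 1. Without NX library 4, 1 member fell, as with DESeq2, limma voom and the fit of only NX and Sham. Besides Cdkn1a, the called member was Cd44, a hyaluronan receptor that appears on regenerating tubules. It was at 19.6, 13.7, 10.7 and 13.4 CPM in Sham and at 46.0, 38.4, 17.3 and 49.0 CPM in NX, where NX library 3 lay below the highest Sham library (log2 1.41, SE 0.30, adjusted p = 0.0463).

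Havcr1 (KIM-1), the usual marker of proximal tubule injury, was at 1.22, 1.07, 0.961 and 1.35 CPM in Sham and at 4.23, 2.47, 1.81 and 7.07 CPM in NX. The groups did not overlap, but the test did not pass (log2 1.81, SE 0.82, adjusted p = 0.281). Lcn2 (NGAL), a marker of distal tubule injury, was at 3.78, 1.07, 1.31 and 0.270 CPM in Sham and at 0.722, 0.215, 4.29 and 10.3 CPM in NX. NX libraries 1 and 2 lay within or below the Sham range and NX libraries 3 and 4 above it (log2 1.48, SE 1.12, adjusted p = 0.535), and limma voom gave the opposite sign, with a log2 fold change of -0.10 (adjusted p = 0.987).

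Of 26 NRF2 and antioxidant genes, 2 rose and 0 fell, against 0.859% of all genes rising. The median log2 fold change was 0.10. Hmox1, the haem-degrading enzyme of the NRF2 response, was at 7.45, 8.06, 7.43 and 4.94 CPM in Sham and at 18.2, 35.1, 16.3 and 16.0 CPM in NX (log2 1.61, SE 0.27, adjusted p = 0.0226). NX library 2 was the high one. Slc7a11, the cystine importer that feeds glutathione synthesis, was at 0 to 0.247 CPM in Sham and at 2.58, 3.55, 0.226 and 2.77 CPM in NX, where NX library 3 lay within Sham (log2 4.21, SE 0.84, adjusted p = 0.0371). The call of Slc7a11 was kept in 1 of the 8 fits that left out a library. Its Sham counts are few, so its fold is uncertain. Of 25 genes of ER stress 0 were called, with a median of -0.08 and 19 negative, and of 26 genes of hypoxia and glycolysis 0 were called, with a median of 0.12. Runx1, a transcription factor of blood cells that injured tubules also make, was the called member of 35 renal transcription factors (log2 1.21, SE 0.23, adjusted p = 0.031). Of the 35, 16 had a positive and 19 a negative log2 fold change, with a median of -0.03.

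**Figure D4:**
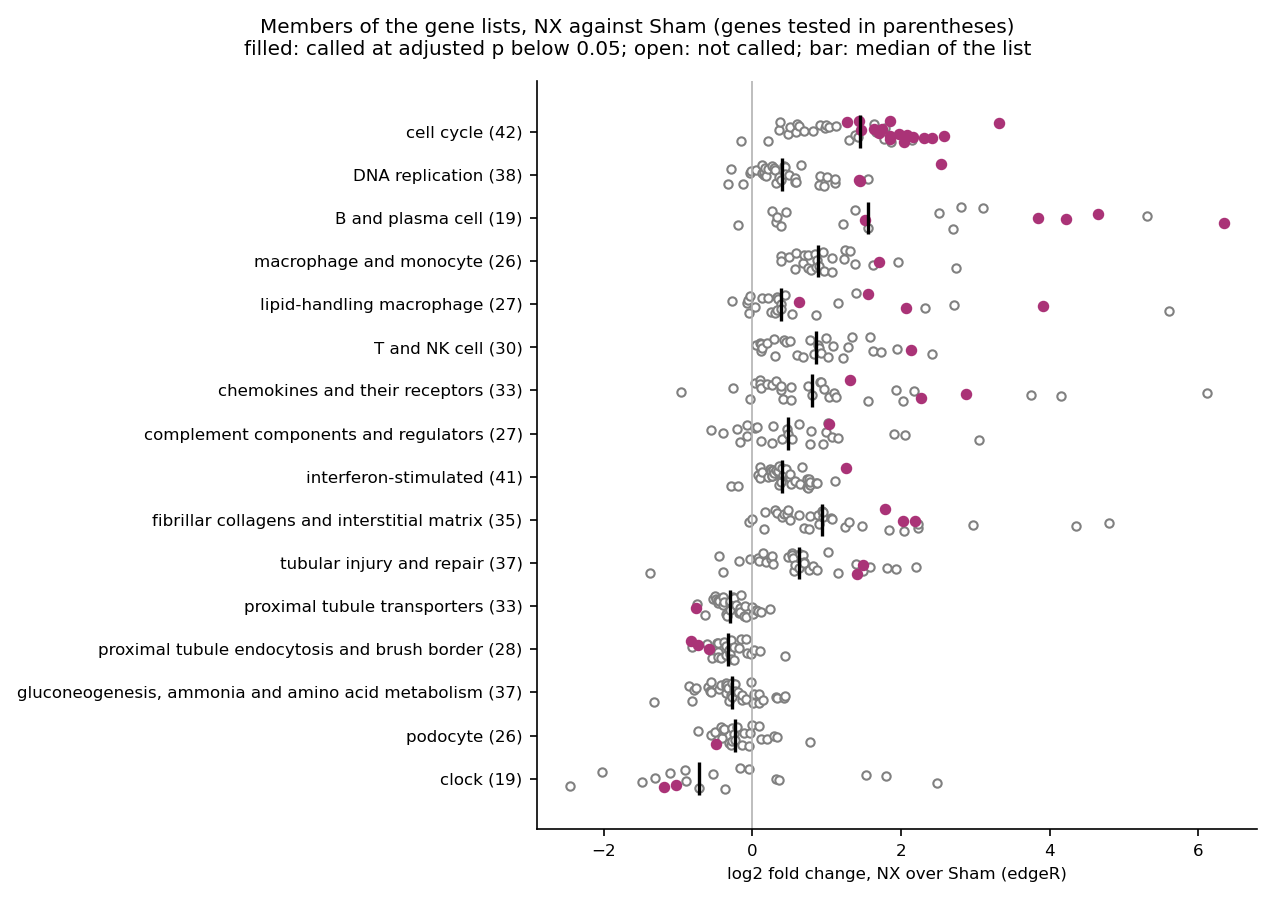
Log2 fold change, NX over Sham, of every tested member of 16 gene lists, with the number tested in parentheses, called members filled, others open, and the median as a bar. The medians run from 1.55 for B and plasma cell genes and 1.45 for cell cycle genes to -0.73 for clock genes, and most members of the proximal tubule lists lie left of 0.

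On the falling side, brush border peptidases of the proximal tubule were called. Of 28 genes of endocytosis and brush border, 3 fell and 0 rose, against 0.447% of all genes falling. The log2 fold change was negative in 25 of the 28, with a median of -0.34. In 8 every NX library lay below every Sham library, against 4.1% of all genes. The summed level was 28161 to 31725 CPM in Sham and 19430, 25070, 29035 and 22004 CPM in NX, with NX library 3 within the Sham range. With NX library 3 left out, 7 fell, and 1 or 2 fell without any other library.

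Mme (neprilysin), a peptidase that breaks down angiotensin and natriuretic peptides, was at 479, 455, 525 and 478 CPM in Sham and at 285, 283, 239 and 288 CPM in NX. NX library 3 was the lowest of all. The log2 fold change was -0.82 (SE 0.11, adjusted p = 0.0083). Ggt1, the enzyme that splits extracellular glutathione, was at 692, 910, 692 and 860 CPM in Sham and at 400, 476, 565 and 460 CPM in NX (log2 -0.73, SE 0.15, adjusted p = 0.0406). Mep1a, a subunit of the brush border protease meprin, was at 766, 658, 659 and 709 CPM in Sham and at 392, 469, 523 and 475 CPM in NX (log2 -0.59, SE 0.12, adjusted p = 0.0371). In both, NX library 3 was the highest of the NX libraries and still below Sham. Cubn (cubilin), the partner of megalin, was at 2491 to 3195 CPM in Sham and at 1669 to 2335 CPM in NX, and did not pass (log2 -0.61, SE 0.16, adjusted p = 0.0768).

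Of 33 proximal tubule transporters, 1 fell and 0 rose, against 0.447% of all genes falling. The log2 fold change was negative in 28, with a median of -0.30. Their sum was 15000 to 17644 CPM in Sham and 10145, 14014, 16447 and 11455 CPM in NX. With NX library 3 left out, 7 fell, and without any other library 0 fell. Slc15a2 (PEPT2), the high-affinity peptide transporter, was at 273, 313, 235 and 297 CPM in Sham and at 161, 157, 169 and 172 CPM in NX (log2 -0.76, SE 0.17, adjusted p = 0.0499). The 4 NX libraries lay close together. Slco2a1, a prostaglandin transporter, fell by 0.55 on the log2 scale (SE 0.12, adjusted p = 0.0463) and was the called member of 22 organic ion and toxin transporters.

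Slc3a1, the heavy subunit of the cystine transporter, was at 2431 to 2951 CPM in Sham and at 1513 to 2030 CPM in NX (log2 -0.64, SE 0.16, adjusted p = 0.0665). Slc34a1 (NaPi-IIa), the main phosphate transporter, overlapped between groups (log2 -0.40, SE 0.24, adjusted p = 0.412). The next 4 transport genes were chosen after their values were seen. Slc5a6, the sodium-dependent multivitamin transporter, was at 157, 152, 133 and 184 CPM in Sham and at 81.8, 82.2, 83.1 and 95.5 CPM in NX (log2 -0.87, SE 0.13, adjusted p = 0.0103). Slc5a10, a sugar carrier whose exons overlap other genes, fell by 0.68 (SE 0.12, adjusted p = 0.0297), Slc23a3 by 0.95 (SE 0.20, adjusted p = 0.0453) and Atp7b, a copper-exporting ATPase, by 0.70 (SE 0.14, adjusted p = 0.0371). The call of Slc23a3 was lost whichever NX or Sham library was left out.

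**Figure D5:**
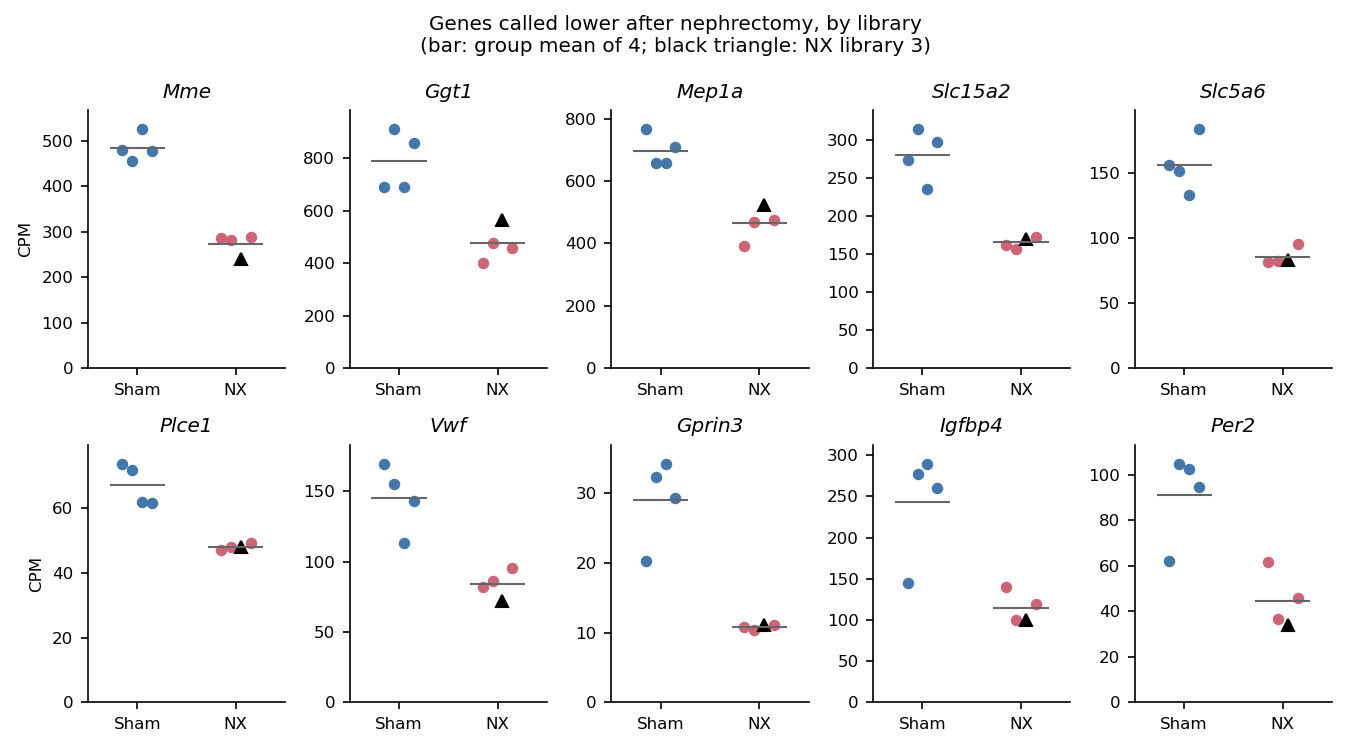
Level of 10 genes called lower in NX, in CPM on axes from 0, 1 point a library, with the mean of the 4 libraries as a bar and NX library 3 as a black triangle. The NX libraries lie together below Sham for Mme, Slc15a2, Slc5a6, Plce1 and Gprin3, and Sham library 1 is the lowest Sham library for Gprin3, Igfbp4 and Per2.

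Of 37 genes of gluconeogenesis, ammonia and amino acid metabolism, 0 were called, with a median log2 fold change of -0.27. DESeq2 called 7 lower and 1 higher, and limma voom 6 lower. Once NX library 3 was left out, 6 fell, 2 fell without Sham library 1 and 0 without any other library. Pck1, the control enzyme of gluconeogenesis, was at 1543, 3502, 4182 and 4443 CPM in Sham and at 1165, 991, 2419 and 883 CPM in NX (log2 -1.32, SE 0.37, adjusted p = 0.0949). Sham library 1 was the low Sham library and NX library 3 the high NX library, so that the groups overlapped. Without NX library 3 the adjusted p was 0.0155. Glul (glutamine synthetase), chosen after its values were seen, was at 2223 to 2892 CPM in Sham and at 1489, 1766, 1860 and 1347 CPM in NX (log2 -0.69, SE 0.14, adjusted p = 0.0374).

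Of 41 genes of fatty acid oxidation and peroxisomes, 0 were called, and 37 had a negative log2 fold change with a median of -0.21. Of 44 nuclear genes of oxidative phosphorylation, 0 were called, with a median of 0.03. For these lists 1 and 0 members, respectively, fell without NX library 3.

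Other nephron segments gave no calls with edgeR: 0 of 21 thick ascending limb genes (median log2 0.01), 0 of 20 of the distal convoluted and connecting tubule (-0.05), 0 of 21 principal cell genes (0.18) and 0 of 22 intercalated cell genes (-0.03). Each of these counts was also 0 without NX library 3. Umod was at 3031 to 3726 CPM in Sham and 2905 to 3877 CPM in NX (log2 -0.07, SE 0.16, adjusted p = 0.861). Kl (klotho), the co-receptor of FGF23 made by the distal tubule, overlapped between groups (log2 -0.13, SE 0.14, adjusted p = 0.656), as did Egf (log2 -0.18, SE 0.19, adjusted p = 0.666).

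Of 26 podocyte genes, 1 fell and 0 rose, against 0.447% of all genes falling, with a median of -0.24. Their sum was 6820 to 7801 CPM in Sham and 5656, 7056, 6946 and 6660 CPM in NX libraries 1 to 4. NX libraries 2 and 3 thus lay within the Sham range. Once NX library 3 was left out, 3 fell, 1 fell without NX library 4 or without Sham library 1, 3 or 4, and 0 without NX library 1 or 2 or Sham library 2. Plce1, a phospholipase needed for podocyte development, was at 73.5, 71.6, 61.9 and 61.4 CPM in Sham and at 46.8, 47.9, 47.8 and 49.2 CPM in NX (log2 -0.49, SE 0.08, adjusted p = 0.0242). The NX libraries were within a narrow band below Sham. Nphs1 (nephrin), of the slit diaphragm, was at 115 to 124 CPM in Sham and at 80.6, 88.6, 106 and 63.4 CPM in NX, without overlap, and did not pass (log2 -0.50, SE 0.15, adjusted p = 0.119). Magi2, a scaffold of the slit diaphragm, did not pass either (log2 -0.74, SE 0.18, adjusted p = 0.062), and its exons overlap another gene.

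Of 27 vessel genes, 1 fell and 0 rose, against 0.447% of all genes falling. The log2 fold change was positive in 16 and negative in 11, with a median of 0.05. The called member was Vwf (von Willebrand factor), made by endothelial cells. It was at 170, 155, 113 and 143 CPM in Sham and at 82.1, 86.6, 72.3 and 95.7 CPM in NX (log2 -0.78, SE 0.17, adjusted p = 0.0477). This call was lost whichever NX or Sham library was left out, at adjusted p from 0.0519 to 0.147.

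Markers of tissues that can adhere to a kidney sample were read beside these results. Of 12 urothelial genes, 0 were called, all 12 had a positive log2 fold change and the median was 1.22. Their sum was 57.0 to 80.5 CPM in Sham and 150, 73.8, 70.9 and 108 CPM in NX, so NX libraries 1 and 4 lay above Sham and the other two within it. The 9 adipose genes tested had 0 calls. Of these, 8 had a positive and 1 a negative log2 fold change, with a median of 0.69. Without NX library 3, 1 rose and 1 fell. Their sum was 1584 to 4503 CPM in Sham and 1328, 1049, 2458 and 933 CPM in NX. Pck1, a member, makes up most of that sum, which therefore does not follow the other adipose genes. Of 12 to 15 markers each of the adrenal gland, pancreas, skeletal muscle and liver, 1, 1, 1 and 2 were tested, the others failing the filter on low counts or not being found by symbol. The part of these tissues in the results was not tested.

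Genes of the circadian clock had the lowest median log2 fold change of the 51 lists, at -0.73. Of 19 tested, 2 fell and 0 rose, against 0.447% of all genes falling, and 14 had a negative log2 fold change. DESeq2 called 8 lower and 2 higher, and limma voom 8 lower and 1 higher. The summed level was 1275, 1588, 1601 and 1519 CPM in Sham and 839, 937, 870 and 1056 CPM in NX, and NX library 3 lay with its group. Once NX library 3 was left out, 3 fell, as without Sham library 1, and 0 fell without any other library. Per2, a repressor of the clock, was at 62.0, 105, 103 and 94.8 CPM in Sham and at 61.9, 36.5, 33.9 and 45.8 CPM in NX (log2 -1.03, SE 0.22, adjusted p = 0.0453). Sham library 1 and NX library 1 were at almost the same level. Hlf, a clock-output transcription factor, was at 28.4, 41.0, 49.2 and 48.1 CPM in Sham and at 24.2, 16.7, 22.0 and 10.8 CPM in NX (log2 -1.20, SE 0.23, adjusted p = 0.0345).

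Dbp, of the same family as Hlf, was at 138, 232, 294 and 233 CPM in Sham and at 32.3, 53.7, 42.5 and 89.3 CPM in NX. It did not pass (log2 -2.03, SE 0.54, adjusted p = 0.0893). Ciart, a clock repressor, did not pass either (log2 -2.45, SE 0.61, adjusted p = 0.0693). Arntl (BMAL1), the activating arm of the clock, chosen after its values were seen, was at 15.8, 4.61, 4.28 and 4.05 CPM in Sham and at 58.0, 38, 43.1 and 19.0 CPM in NX. Sham library 1 was the high Sham library and NX library 4 the low NX library, and the test did not pass (log2 2.49, SE 0.68, adjusted p = 0.0956). Npas2, which pairs with Arntl and was chosen in the same way, showed the same 2 libraries apart, at 12.5 CPM in Sham library 1 and 9.59 CPM in NX library 4, and did not pass (log2 1.79, SE 0.55, adjusted p = 0.126). The labels do not give the time of day, and its part in these values was not tested. Usp2, a deubiquitinase that follows the clock, fell by 1.06 (SE 0.23, adjusted p = 0.0453), with NX library 4 just above Sham library 1, and did not pass without NX library 3 (adjusted p = 0.0509).

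The remaining falls were spread over genes of varied function. Gprin3 was at 20.4, 32.3, 34.3 and 29.3 CPM in Sham and at 10.8, 10.3, 11.1 and 11.1 CPM in NX (log2 -1.43, SE 0.16, adjusted p = 0.00402), and its NX libraries were nearly equal. Rbfox3, an RNA-binding splicing regulator best known from neurons, was at 8.72 to 13.2 CPM in Sham and at 3.11 to 5.31 CPM in NX (log2 -1.43, SE 0.23, adjusted p = 0.0213). Armc3 fell by 1.78 (SE 0.35, adjusted p = 0.0386), the largest fall among the called genes named, from 34.9 to 58.6 CPM in Sham to 20.3, 11.8, 10.6 and 11.2 CPM in NX. Hif3a, of the hypoxia-inducible factor family, fell by 1.68 (SE 0.34, adjusted p = 0.0377), and Myb, a transcription factor of progenitor cells, by 1.48 (SE 0.31, adjusted p = 0.0423).

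Igfbp4, a binding protein of insulin-like growth factors, was the called member of 36 growth factors and receptors. It was at 145, 277, 289 and 260 CPM in Sham and at 140, 100, 99.6 and 120 CPM in NX (log2 -1.08, SE 0.20, adjusted p = 0.0297). Sham library 1 was the low one and lay just above NX library 1. Etnppl, which breaks down phosphoethanolamine, fell by 1.19 (SE 0.22, adjusted p = 0.0297). The last 3 genes were chosen after their values were seen. Afm (afamin), a vitamin E-binding protein, was at 24.6 to 35.6 CPM in Sham and at 15.5, 13.2, 16.4 and 17.0 CPM in NX (log2 -0.99, SE 0.13, adjusted p = 0.00642). Errfi1, a feedback inhibitor of the EGF receptor, fell by 0.90 (SE 0.14, adjusted p = 0.0186). Il33, an alarmin held in nuclei, fell by 0.74 (SE 0.13, adjusted p = 0.0271).

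The closest group to NX in the series is AVF+NX, which shares the nephrectomy and adds the fistula. Its test against NX uses the same NX libraries as the comparison with Sham, so the 2 sets of values are only set side by side. Of all genes tested, 6.07% were called between AVF+NX and NX, 4.87% higher and 1.2% lower in AVF+NX. Igh-6 was at 468, 1119, 735 and 2281 CPM in AVF+NX, above every NX library (log2 3.72 over NX, SE 0.61, adjusted p = 0.00904). Mrc1 was at 46.1 to 100 CPM in AVF+NX (log2 1.26 over NX, adjusted p = 0.0378), and Col1a1 was at 2808, 2118, 1244 and 2096 CPM (log2 1.57 over NX, adjusted p = 0.0292), with NX library 2 just above the lowest of them. Mki67 was at 28.5 to 49.2 CPM (log2 0.72 over NX, adjusted p = 0.0375).

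Top2a, at 15.6 to 32.4 CPM in AVF+NX, did not pass against NX (log2 0.64, adjusted p = 0.149), nor did Pbk (log2 0.10, adjusted p = 0.985). For Mme the difference of AVF+NX from NX was -0.08 (SE 0.11, adjusted p = 0.703), with levels of 222 to 321 CPM. For Gprin3 it was 0.21 (SE 0.16, adjusted p = 0.475), with levels of 10.3 to 15 CPM. Kl, which was not called in NX against Sham, was at 592 to 754 CPM in AVF+NX and lower than in NX by the test (log2 -0.53, adjusted p = 0.0413).

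The authors' deposited table of NX against Sham in kidney lists 13991 genes. At an adjusted p below 0.05 the authors' deposited table holds 819 genes, 426 higher and 393 lower. Of the 187 genes called here, 177 are also called in the authors' deposited table, all 177 in the same direction.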

How the data were processed

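Poly(A) RNA of kidney was sequenced with a strand-specific kit, per the labels' protocols. The submitters' processing notes name Trimmomatic 0.36, STAR 2.5.2b, featureCounts and Subread 1.5.2. The build, the annotation and the handling of strand in counting were not given in the sources used here. Raw gene counts were deposited for each library. The tables of comparisons deposited by the authors hold log2 fold changes, p-values and adjusted p-values, and a signal per library. In the deposited kidney tables each signal equalled the count divided by 1 factor per library.

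The counts were tested with edgeR 4.0.16 in R 4.3.3 (filterByExpr, TMM scaling, robust quasi-likelihood fit, Benjamini-Hochberg adjustment over 14322 genes). All 12 kidney libraries entered the fit, and the contrast was NX minus Sham. Calls needed an adjusted p under 0.05. The SE of a log2 fold change is its size without sign, divided by the square root of the F statistic of its test. It is thus derived from the test and only approximate, above all for genes with few counts. The smallest chi-square per degree of freedom between replicates of a group was 9.50, so none agreed within sampling noise. Alternatives used DESeq2 1.42.0, limma 3.58.1, other filters, scalings and samples.

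Gene lists and members were chosen with earlier results of these data known. Named genes are the 12 largest rises and falls among called genes with a symbol and a mean of at least 1 CPM, the called and next genes of each list by p, and fixed kidney genes. The text prints a part of them, and says where a gene was chosen after its values were seen.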

Additional observations from a re-analysis of the deposited data

Results flagged for a closer look

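In 21 of 180 groups of 4 libraries, 1 library lay far from the others by Dixon's test, which chance alone gives in about 1 in 20 groups. Values are CPM. NX library 4 was the high one for Pbk at 2.57, Ccnb1 at 5.49, Umod at 3877, Myb at 2.08 and Slc5a6 at 95.5. It was the low one for Ctsd at 637 and for Npas2 at 9.59. This library also had the most counts and the lowest mitochondrial share.

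NX library 3, which lay near Sham on the first principal component, was the low one for Mcm3 at 3.50, Mcm6 at 6.33 and Jchain at 5.76. Each of these lay nearer to Sham than the other NX libraries did. It was also the low one for Mme at 239 and Slc23a3 at 22.3, which lay farther from Sham than the other NX libraries did.

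NX library 2 was the high one for Hmox1 at 35.1, and NX library 1 for Armc3 at 20.3. Among Sham libraries, library 1 was high for Arntl at 15.8 and Npas2 at 12.5, and library 2 for Errfi1 at 982. Library 3 was low for Ccr7 at 0.0874 and high for Magi2 at 23.0. Library 4 was high for C2 at 5.21 and Hif3a at 5.48.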

How the results depend on the processing

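With all libraries, 187 genes were called, 123 higher and 64 lower. RLE scaling, no filter, a filter at a mean of 1 CPM and a fit restricted to NX and Sham each gave totals within 1.5 times of this, from 159 to 191. The calls were not all the same genes: of the 187, 185 were also called with RLE scaling, 147 without a filter, 174 with the filter at 1 CPM and 111 with NX and Sham alone. DESeq2 called 835 genes (495 higher, 340 lower), and limma voom with quality weights called 568 (296 higher, 272 lower). Asking also for a 2-fold difference left 114 genes, 100 higher and 14 lower, which follows from the added limit. Leaving out 1 NX or Sham library gave 19 to 583 calls, 12 to 415 higher and 6 to 168 lower. The highest counts came without NX library 3. An alternative chosen after seeing the data, only NX and Sham libraries without NX library 3, called 1002 genes (621 higher, 381 lower). The cause of these changes was not tested.

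Same-numbered NX and Sham libraries had correlations of their deviations of 0.261, -0.0587, 0.229 and -0.0748. Those with different numbers had -0.238 to 0.105, so the same-number values of libraries 1 and 3 were the highest of all. The labels give only a replicate number, and the main fit did not take it to pair the samples. Whether libraries of 1 number share a batch was not tested. A fit with the replicate number as a block called 669 genes (367 higher, 302 lower). Not every library correlated best with its own number.

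Counts of list members moved with the tool, as did those over all genes. Of the 14322 genes tested, DESeq2, limma voom and the replicate block called 495, 296 and 367 higher and 340, 272 and 302 lower. The counts of list members are to be read beside these. With DESeq2, limma voom and the replicate block, respectively, the members called higher were 30, 23 and 27 of the cell cycle list, 8, 7 and 6 of DNA replication, 10, 4 and 6 of B and plasma cells, 7, 4 and 3 of lipid-handling macrophages and 10, 3 and 1 of T and NK cells. They were 9, 4 and 6 of chemokines, 7, 1 and 5 of complement, 2, 1 and 2 of interferon-stimulated genes and 9, 4 and 6 of tubular injury. Members called lower were 5, 6 and 9 of proximal tubule transporters, 9, 7 and 8 of brush border genes and 4, 2 and 5 of podocyte genes. They were also 1, 1 and 1 of tubular injury and 1, 0 and 1 of chemokines. The block called 6 macrophage and 14 matrix members higher, 7 gluconeogenesis members lower, and 6 clock members lower and 2 higher.

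Of the 61 called genes named, 60 kept their call with RLE scaling, 45 without a filter, 41 with only the NX and Sham libraries, 61 with DESeq2, 55 with limma voom and 58 with the replicate block. With only the NX and Sham libraries 13 lost their call. The rest, Mzb1 among them, were not tested there, since they passed the count filter only with the AVF+NX libraries included. Of the 29 named genes not called, 23 passed with DESeq2, 14 with limma voom and 18 without NX library 3. The direction changed for Lcn2 alone, at -0.10 (log2) with limma voom, and the cause was not tested. Counts below about 1 CPM, such as those of Cr2, Mzb1, Slc7a11, Pbk, Cdkn2b, Ccl7, Slamf6 and Postn in Sham, rest on a few reads a library. The size of such folds is uncertain.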
